A study of Mus musculus with 14 samples.

Results

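Cholesterol is built from acetyl-CoA by a chain of enzymes, and the transcripts of that chain and of the SREBP system that controls it were measured in mouse bone marrow-derived macrophages. The members are 32 genes, chosen by matching the RefSeq accessions of array probes to a list of names, of 21368 named genes on the array. They comprise 8 genes of the mevalonate arm, 11 of the steps from squalene to the finished sterol ring, 5 regulators of SREBP, the sterol transfer protein gene Stard4, and 7 genes of fatty acid synthesis and desaturation. All 32 had probes, 46 in all, and 39 of these probes lay well above background on every array of at least 1 group. That left 30 genes for testing. Scd1 and Fads2 did not pass.

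SREBP-2, encoded by Srebf2, and SREBP-1, encoded by Srebf1, are transcription factors held in the membrane of the endoplasmic reticulum. When membrane cholesterol is low, the escort protein SCAP carries them to the Golgi, where proteases release the active fragment, and when cholesterol or oxysterols are plentiful, INSIG proteins retain SCAP. Released SREBP-2 mainly drives genes of sterol synthesis, and SREBP-1 mainly drives genes of fatty acid synthesis. Insig1 is itself a target, so its transcript is often read together with those of the enzymes. In macrophages, sterols also reach the cell as lipoproteins and dead cells, which are digested in lysosomes.

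RNA came from cultures of female C57BL/6 mice aged 8 weeks. One genotype was LysM-Double-Cre x TFEB transgene+ (transgenic), in which Cre recombinase under the myeloid gene LysM accompanies a transgene for TFEB, a driver of lysosome and autophagy genes. The other was LysM-Double-Cre x TFEB transgene- (wild-type), from the same cross without the transgene. Marrow was differentiated with M-CSF for 1 week, and the replated cells were given 24 h of DMEM alone (control) or of DMEM containing EO771-conditioned medium plus tumour lysate (tumour material). EO771 is a mouse mammary tumour line. The 14 one-colour arrays covered 3 wild-type control, 3 wild-type tumour, 3 transgenic control and 2 transgenic tumour replicates, with replicate 3 hybridised on 2 arrays in every group except transgenic control. Transgenic tumour replicate 1 is not analysed here. The sources used here do not say how many animals gave each culture, so p-values measure the spread between these cultures, not between animals. Repeat arrays entered the fit with a correlation of 0.0718, so they counted almost as separate replicates. The spread between arrays of 1 culture is thus part of the error. The number of replicates limits the precision of every value.

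The promoters of the members are shown first because the 2 SREBP factors act through DNA. RefSeq promoters, on build GRCm38.p6, were matched for 25 of the 32 members, and the 250 bases before the start are printed for 5 whose transcripts moved with tumour material: an early mevalonate enzyme, a late one, a sterol ring enzyme, a regulator and a fatty acid enzyme. Capitals mark the sterol regulatory element core TCACNCCAC, the E-box CACGTG and the CCAAT box on either strand, so a CCAAT box on the other strand reads ATTGG. The windows are Hmgcs1 at chr13:119690101-119690350 (plus strand), Idi1 at chr13:8885356-8885605 (plus strand), Cyp51 at chr5:4104698-4104947 (minus strand), Insig1 at chr5:28071162-28071411 (plus strand) and Fasn at chr11:120824548-120824797 (minus strand). Positions count back from the annotated start.
Hmgcs1: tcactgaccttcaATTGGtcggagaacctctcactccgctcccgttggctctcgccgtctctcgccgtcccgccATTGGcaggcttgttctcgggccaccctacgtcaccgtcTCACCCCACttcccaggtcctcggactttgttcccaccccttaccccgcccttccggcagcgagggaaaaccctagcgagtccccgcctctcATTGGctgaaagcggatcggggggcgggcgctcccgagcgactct
Idi1: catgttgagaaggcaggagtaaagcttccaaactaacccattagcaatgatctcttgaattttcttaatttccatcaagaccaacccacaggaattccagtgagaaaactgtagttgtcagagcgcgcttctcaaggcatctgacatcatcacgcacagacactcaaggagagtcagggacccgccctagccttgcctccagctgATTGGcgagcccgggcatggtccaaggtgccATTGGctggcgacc
Cyp51: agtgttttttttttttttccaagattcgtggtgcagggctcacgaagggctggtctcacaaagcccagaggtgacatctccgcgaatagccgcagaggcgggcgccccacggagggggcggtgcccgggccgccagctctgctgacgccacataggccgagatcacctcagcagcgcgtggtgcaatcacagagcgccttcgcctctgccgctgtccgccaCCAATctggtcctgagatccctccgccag
Insig1: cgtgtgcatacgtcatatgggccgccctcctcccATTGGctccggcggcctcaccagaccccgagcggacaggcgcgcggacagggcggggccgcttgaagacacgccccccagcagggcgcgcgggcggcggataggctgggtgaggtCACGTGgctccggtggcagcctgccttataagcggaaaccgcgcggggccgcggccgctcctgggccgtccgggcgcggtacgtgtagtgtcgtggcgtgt
Fasn: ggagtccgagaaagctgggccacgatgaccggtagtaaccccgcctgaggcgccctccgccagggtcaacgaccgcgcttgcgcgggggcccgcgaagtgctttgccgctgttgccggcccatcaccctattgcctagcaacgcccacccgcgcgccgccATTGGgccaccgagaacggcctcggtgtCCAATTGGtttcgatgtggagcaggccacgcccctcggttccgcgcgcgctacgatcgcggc

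The sterol element core was found in 1 of the 25 members, Hmgcs1, at position -137, where it reads TCACCCCAC. It was present for 1.44% of the 8848 tested genes with a promoter in the table. The CCAAT box occurred in 22 of 25 members (88.0%) against 42.7% of the tested genes, and the GC box GGGCGG in 22 of 25 against 67.1%. The E-box, the core of the motif that TFEB binds, occurred in 5 members, which were Hsd17b7, Sc5d, Dhcr7, Insig1 and Scap, against 12.1% of the tested genes. These windows hold 300 bases, 250 before and 50 after the start, and a gene with several starts counts when any of them holds the motif. In Fasn, 2 marked CCAAT boxes overlap. A match describes letters in the window, and binding was not measured.

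Levels are log2 signal over the array's 75th percentile, so they compare groups for 1 gene and not genes with each other. Changes are log2 differences from limma with their SE, and a change was called at an adjusted p under 0.05 over 15834 genes (Benjamini-Hochberg). Between 35.5% and 40.2% of spots per array lay well above background, and no spot was saturated (0 spots). Of 12 macrophage markers 11 lay above background on all arrays in each group, while 10 of 10 epithelial markers, among them Krt8, Krt18 and Epcam, lay above background on no array. Of 8 fibroblast markers, 4 lay above background on all wild-type control and 6 on all wild-type tumour arrays. The counts were 2 for transgenic control and 4 for transgenic tumour. The transgenic control replicates were less alike than the arrays of other groups, with lowest correlations within the group of 0.955, 0.957 and 0.955 for replicates 1, 2 and 3 against 0.977 or more elsewhere. In replicate 1 the median over neutrophil markers was 5.15 against 2.87 and 3.23 in replicates 2 and 3, and its sterol genes were low as described below. Slides 1 and 2 held the arrays unevenly, with all transgenic tumour arrays on slide 2, so a slide term entered the fit. The 3 arrays in slide column 4, transgenic control replicates 1 and 2 and the repeat of transgenic tumour replicate 3, took a larger spatial correction in the scanner software. In bulk RNA, fewer cells of a kind and less RNA per cell cannot be told apart.

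Tfeb, the gene the transgene carries, was measured first as a check of the labels. It read 0.97, 0.80 and 0.87 in wild-type control, -0.73, -0.71 and -0.62 in wild-type tumour, 1.33, 1.35 and 0.84 in transgenic control and -0.01 and -0.14 in transgenic tumour. Transgenic control replicate 3 was thus within the wild-type range. The genotype difference was 0.31 in control medium (adjusted p = 0.164) and 0.69 with tumour material (adjusted p = 0.0264), and the difference between the 2 did not pass (0.38, adjusted p = 0.479). The sources used here do not say whether the probe reads the transgene's transcript.

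**Figure D1:**
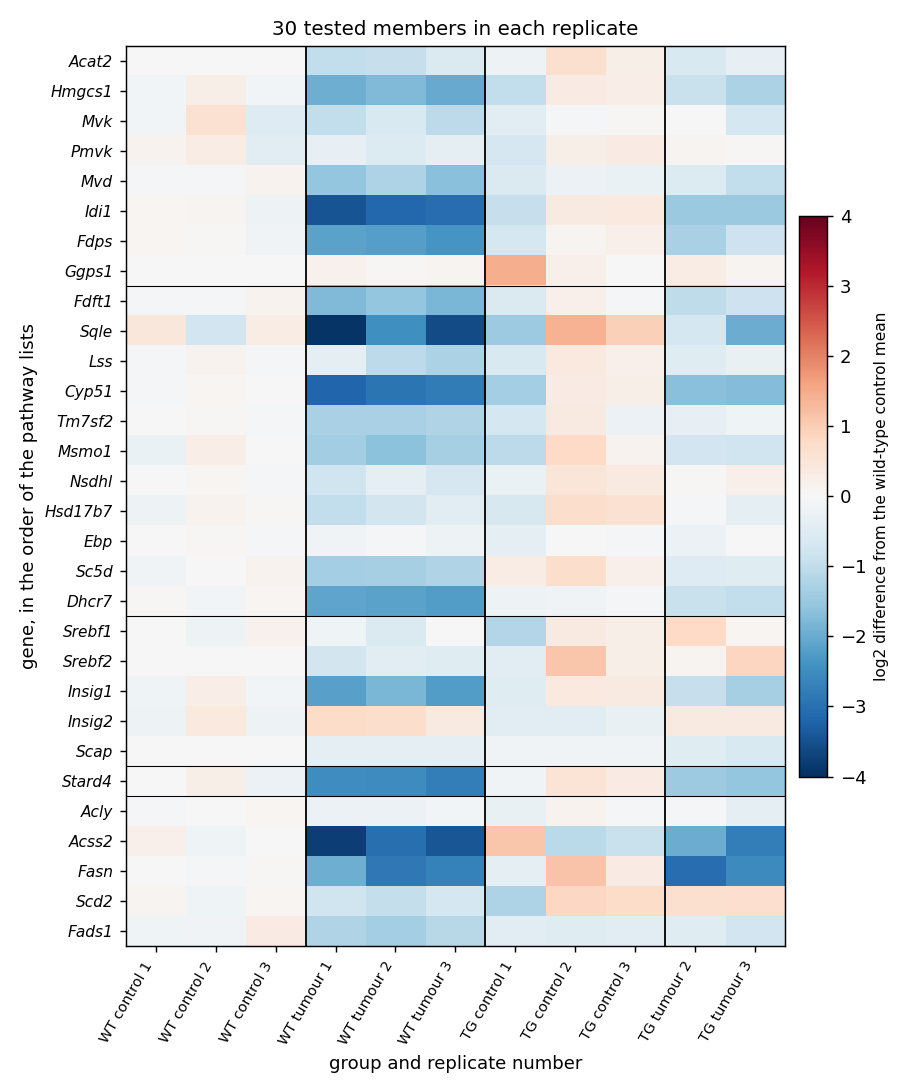
Difference of each tested member from the wild-type control mean in each of the 11 replicates, in log2 units; rows are genes in pathway order and columns are replicates by genotype (WT wild-type, TG transgenic) and medium. Wild-type tumour replicates are uniformly blue over most sterol genes, transgenic tumour replicates are paler, and transgenic control replicate 1 differs from replicates 2 and 3.

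With tumour material, wild-type macrophages lowered most of the cholesterol pathway. Of the 30 tested members 21 fell and 1 rose, where 16.8% of all genes tested fell and 23.2% rose. The fall took in 15 of 19 sterol synthesis genes, Stard4, Insig1 and Scap among the regulated and regulating genes, and 3 of 5 tested fatty acid genes. The single riser was Insig2. The median change was -1.31 over the 19 sterol synthesis genes and 0.05 over all genes, and 26 of 30 members lay lower in every tumour replicate than in any control replicate, against 25.6% of all genes.

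The mevalonate arm turns acetyl-CoA into isoprenoid units, and 6 of its 8 genes fell. Hmgcs1, the synthase that makes HMG-CoA, stood at 5.52, 5.88 and 5.52 in wild-type control, 3.69, 3.89 and 3.61 in wild-type tumour, 4.64, 5.98 and 5.91 in transgenic control and 4.76 and 4.38 in transgenic tumour. Its wild-type levels did not overlap between media and fell by 1.91 (SE 0.26, adjusted p = 0.000122), a change of 3.76-fold. Idi1, which isomerises isopentenyl diphosphate, measured 3.40, 3.45 and 3.14 in wild-type control, -0.13, 0.20 and 0.28 in wild-type tumour, 2.40, 3.69 and 3.74 in transgenic control and 1.84 and 1.85 in transgenic tumour. This was an 8.78-fold fall in wild-type cells (-3.13, SE 0.25, adjusted p = 1.97e-06), and no replicate of either medium reached the range of the other.

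Fdps, the farnesyl diphosphate synthase at the branch point to sterols, read 4.02, 3.97 and 3.78 in wild-type control and 1.78, 1.72 and 1.55 in wild-type tumour. In transgenic cells Fdps read 3.24, 4.03 and 4.11 without and 2.63 and 3.10 with tumour material. The wild-type difference was -2.24 (SE 0.22, adjusted p = 9.17e-06). Mvd, the decarboxylase that forms isopentenyl diphosphate, fell by 1.55 (SE 0.17). Mvk, the kinase that phosphorylates mevalonate, fell by 0.80 (SE 0.26, adjusted p = 0.03), and Acat2, an acetoacetyl-CoA thiolase, fell by 0.77 (SE 0.17). The call for Mvk was lost without wild-type control replicate 1 or 2 or wild-type tumour replicate 1 or 3, and a second probe of the gene, at -0.34, did not pass. Pmvk, the next kinase, was not called at its brightest probe (-0.31, adjusted p = 0.468), where the repeat arrays of wild-type control replicate 3 differed by 1.52, whereas its second probe was called at -0.88 (adjusted p = 0.00182). Ggps1, which leads away from sterols to geranylgeranyl diphosphate, showed 0.12 (95% interval -0.40 to 0.63).

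From squalene to the finished ring, 9 of 11 genes fell and the other 2, Hsd17b7 and Ebp, also had negative estimates. Fdft1, the squalene synthase, read 2.19, 2.20 and 2.42 in wild-type control, 0.52, 0.72 and 0.45 in wild-type tumour, 1.69, 2.47 and 2.19 in transgenic control and 1.27 and 1.45 in transgenic tumour. Its wild-type fall was 1.77 on the log2 scale (-1.77, SE 0.16). Sqle, the squalene epoxidase that introduces the first oxygen, was among the most variable members: 4.23, 3.03 and 4.09 in wild-type control against -0.15, 1.34 and 0.20 in wild-type tumour. Its transgenic values were 2.32, 5.17 and 4.74 without and 3.08 and 1.81 with tumour material. The wild-type estimate of -3.45 therefore carried an SE of 0.74 (adjusted p = 0.00305), and the repeat arrays of transgenic tumour replicate 3 differed at Sqle by 2.88, the widest gap among the tested members in any of the 3 repeated replicates.

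Cyp51, the lanosterol demethylase, ran at 1.32, 1.49 and 1.38 in wild-type control, -1.78, -1.52 and -1.41 in wild-type tumour, 0.05, 1.73 and 1.64 in transgenic control and -0.27 and -0.34 in transgenic tumour. Wild-type replicates lay close together in each medium, and the change was -2.93 (SE 0.30, adjusted p = 1.35e-05). Dhcr7, the reductase of the last double bond on the way through 7-dehydrocholesterol, read 1.81, 1.65 and 1.84 in wild-type control, -0.34, -0.38 and -0.48 in wild-type tumour, 1.56, 1.63 and 1.68 in transgenic control and 0.89 and 0.78 in transgenic tumour. Its 4 groups did not overlap apart from wild-type and transgenic control, which met. The wild-type fall was 4.59-fold (-2.20, SE 0.14, adjusted p = 4.43e-07), with a narrower SE than that of Idi1, Sqle or Cyp51.

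Sc5d, the desaturase just before Dhcr7, read 4.11, 4.27 and 4.41 in wild-type control, 2.89, 2.93 and 3.05 in wild-type tumour, 4.56, 4.97 and 4.45 in transgenic control and 3.74 and 3.79 in transgenic tumour. Tm7sf2, a sterol C14 reductase, read 2.66, 2.69 and 2.58 in wild-type control and 1.36, 1.33 and 1.45 in wild-type tumour, with 1.95, 2.99 and 2.42 in transgenic control and 2.30 and 2.46 in transgenic tumour. Both fell in wild-type cells, by 1.31 (SE 0.13) and by 1.23 (SE 0.18). Msmo1, the methyl sterol oxidase, fell by 1.43 (SE 0.32), Lss, the cyclase that closes the ring, by 0.97 (SE 0.29), and Nsdhl, which works with Msmo1 on demethylation, by 0.60 (SE 0.17). Lss was well above background on 2 of the 4 wild-type tumour arrays, and its call was lost without wild-type tumour replicate 3 (or transgenic tumour replicate 3). Without wild-type tumour replicate 1 or 3, or transgenic tumour replicate 3, Nsdhl was not called either. Hsd17b7, a sterol ketoreductase, missed the threshold at -0.67 (adjusted p = 0.0519) while its second probe passed at -0.78 (adjusted p = 0.00379). Ebp, the isomerase of the ring double bond, showed -0.15 (95% interval -0.40 to 0.09).

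Among the regulators, both INSIG genes changed and in opposite directions. Insig1 read 0.69, 1.14 and 0.76 in wild-type control, -1.31, -0.96 and -1.38 in wild-type tumour, 0.36, 1.24 and 1.22 in transgenic control and -0.06 and -0.47 in transgenic tumour. It fell by 2.09 in wild-type cells (SE 0.21, adjusted p = 1.34e-05). Insig2, the INSIG that is not driven by SREBP in the same way, read 2.22, 2.79 and 2.22 in wild-type control and 3.15, 3.12 and 2.76 in wild-type tumour, so 1 tumour replicate lay just under the highest control. In transgenic cells Insig2 read 1.97, 1.96 and 2.13 without and 2.77 and 2.77 with tumour material, with no overlap. The wild-type rise of 0.59 (SE 0.15, adjusted p = 0.00789) was lost without wild-type control replicate 3, and when all passing probes of the gene were averaged.

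Scap, the escort itself, varied little: 4.49, 4.48 and 4.49 in wild-type control, 4.12, 4.11 and 4.11 in wild-type tumour, 4.34, 4.34 and 4.35 in transgenic control and 4.01 and 3.89 in transgenic tumour. Its change was small but separated in every replicate, at -0.37 (SE 0.09, adjusted p = 0.00556), and it was not called without wild-type tumour replicate 3. Srebf2 read 2.00, 1.99 and 1.98 in wild-type control, 1.27, 1.57 and 1.51 in wild-type tumour, 1.53, 3.10 and 2.22 in transgenic control and 2.10 and 2.85 in transgenic tumour. Wild-type tumour replicates of Srebf2 all lay under their controls, but the transgenic replicates spread widely, and with 1 error estimated over all groups the difference of -0.53 did not pass (SE 0.32, adjusted p = 0.212). A second, dimmer Srebf2 probe did pass at -0.76 (adjusted p = 0.00237). Srebf1 showed -0.23 (95% interval -0.85 to 0.39). Stard4, whose protein moves cholesterol between membranes, read 1.11, 1.32 and 0.85 in wild-type control, -1.39, -1.41 and -1.66 in wild-type tumour, 0.96, 1.63 and 1.44 in transgenic control and -0.36 and -0.46 in transgenic tumour, and its wild-type change was -2.56 (SE 0.19, adjusted p = 1.12e-06).

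**Figure D2:**
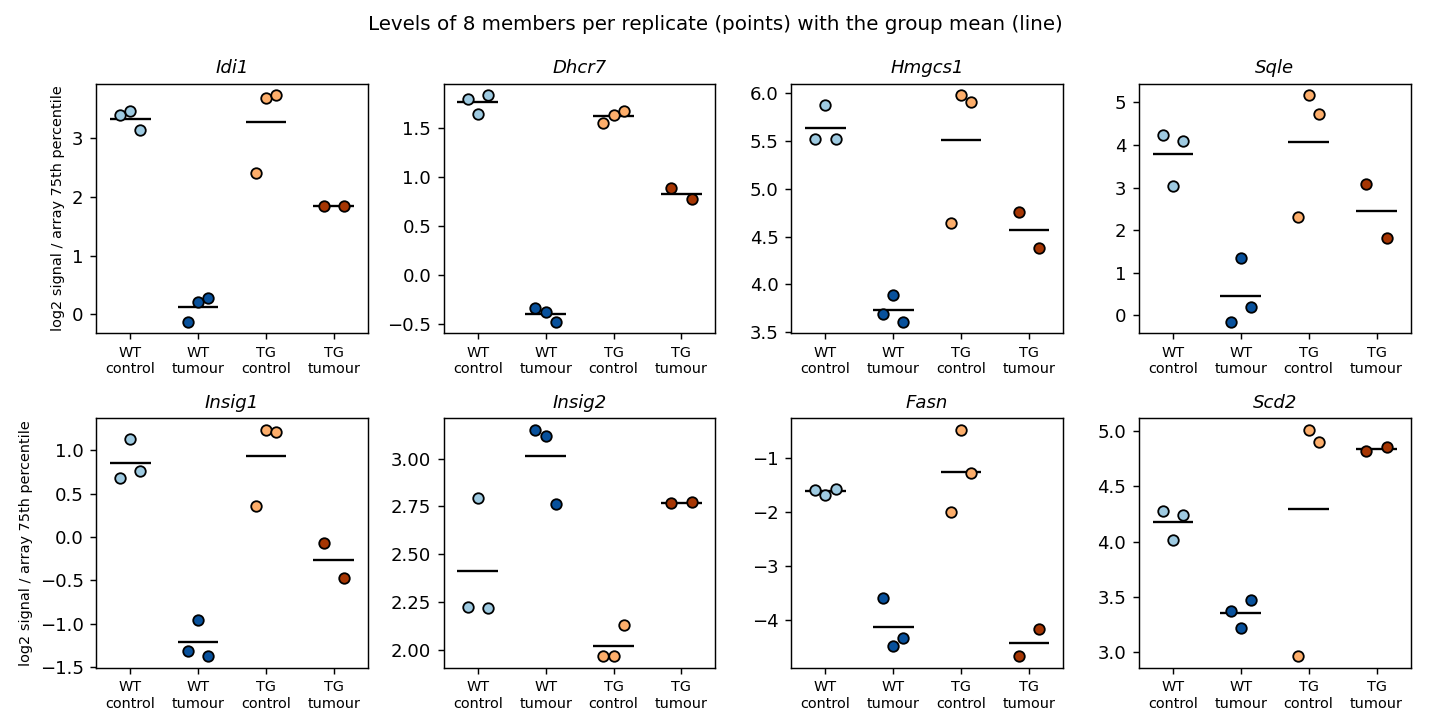
Level of 8 members in each replicate (points) with the group mean (line), as log2 signal over the array's 75th percentile, for wild-type (WT) and transgenic (TG) cells in control medium or with tumour material. Idi1, Dhcr7, Hmgcs1 and Insig1 lie lower in every WT tumour replicate than in any WT control replicate, Insig2 rises, and the TG tumour points of Scd2 (4.82 and 4.86) sit above every WT point; Fasn in both tumour groups was not well above background.

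The 5 tested fatty acid genes all had negative estimates in wild-type cells but differed in size, and 3 were called. Acss2, which makes acetyl-CoA from acetate, read 0.84, 0.47 and 0.63 in wild-type control and -3.11, -2.37 and -2.76 in wild-type tumour, where no array was well above background (0 of 4). For such a dim group, the bright group's mean was set against a limit on each dim array. The limit was the larger of the lowest signal called above background and the probe's own signal. For Acss2 in wild-type cells this gave a 10.5-fold fall, the same as the fit (-3.40, SE 0.40, adjusted p = 4.24e-05). It is therefore an estimate and not a minimum. Another background correction (normexp) gave a smaller fitted fall of 1.50. A second, dimmer probe of Acss2, which did not pass the filter, gave -1.96 (adjusted p = 0.0027). Acss2 in transgenic cells read 1.75, -0.44 and -0.23 without and -1.33 and -2.11 with tumour material. Fasn, the fatty acid synthase, read -1.60, -1.69 and -1.57 in wild-type control and -3.59, -4.48 and -4.33 in wild-type tumour, again not well above background on any tumour array. That was at least 2.42-fold lower (fitted -2.57, adjusted p = 0.000216), and normexp gave a fitted fall of 0.54.

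Fads1, a front-end desaturase of polyunsaturated fatty acids, read 3.18, 3.22 and 3.69 in wild-type control, 2.18, 2.02 and 2.25 in wild-type tumour, 2.94, 2.89 and 2.96 in transgenic control and 2.89 and 2.59 in transgenic tumour. Wild-type cells lost 2.41-fold of it (-1.27, SE 0.16, adjusted p = 6.33e-05). Scd2, a stearoyl-CoA desaturase, read 4.28, 4.01 and 4.24 in wild-type control, 3.37, 3.22 and 3.47 in wild-type tumour, 2.96, 5.01 and 4.90 in transgenic control and 4.82 and 4.86 in transgenic tumour. Its wild-type levels did not overlap between media, transgenic control replicate 1 lay far under the other replicates of its group, and the wild-type difference of -0.81 was not called (SE 0.35, adjusted p = 0.0897). Acly, which supplies cytosolic acetyl-CoA from citrate, differed by -0.19 (95% interval -0.47 to 0.09). Scd1 was well above background on 3 of 4 wild-type control arrays and on 0 of 4 wild-type tumour arrays, and on 2 of 3 and 0 of 3 transgenic ones. Its levels were -2.10, -2.79 and -1.61 in wild-type control and -3.71, -3.81 and -3.39 in wild-type tumour. Fads2 was above background on no array.

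Taken by slide, the wild-type sterol median was -1.29 on slide 1, where 20 members fell, and -1.40 on slide 2. The wild-type arrays of slide 2 are repeats of replicate 3, so they add no separate culture. The 11 members called lower and 0 higher there rest on 1 wild-type array against 1, with the spread taken from the transgenic tumour cultures (1 residual degree of freedom). Markers of granulocyte precursors fell with the same treatment in 7 of 10 genes, and cell division genes in 7 of 12. The log2 summed signal of the granulocyte markers ran from 7.89 to 8.00 in wild-type control and from 6.52 to 6.90 in wild-type tumour, while that of the macrophage markers ran from 11.80 to 12.00 and from 12.07 to 12.15. Of 6 tested fibroblast markers 2 rose and 0 fell, where 23.2% of all genes rose, and 4 of the 6 estimates were negative. The summed fibroblast signal ran from 0.85 to 4.55 in wild-type control and from 5.07 to 5.46 in wild-type tumour. The part of cell composition in the sterol result was not tested.

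Transgenic macrophages lowered the pathway too, with fewer genes past the threshold. Of the 30 members 12 fell and 1 rose, where 10.2% of all genes fell and 15.1% rose. Those that fell were Acat2, Hmgcs1 and Idi1 of the mevalonate arm, Fdft1, Cyp51, Sc5d and Dhcr7 of the ring steps, Insig1, Scap, Stard4, Acss2 and Fasn. Insig2 rose again. The sterol median was -0.76 against 0.06 for all genes, and 13 of 30 members were lower in both tumour replicates than in every control replicate, against 21.1% of all genes. Relative to the wild-type control mean, the sterol median was -0.61, 0.34 and 0.19 in transgenic control and -0.54 and -0.69 in transgenic tumour. Control replicate 1 thus lay between the tumour replicates, and the medians of the media overlapped.

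The sizes ran from small to moderate. Cyp51 fell by 1.59 (SE 0.39, adjusted p = 0.011), Idi1 by 1.56 (SE 0.33, adjusted p = 0.00424) and Stard4 by 1.70 (SE 0.25, adjusted p = 0.000404). Insig1 fell by 1.24 (SE 0.28), Sc5d by 0.89 (SE 0.17), Dhcr7 by 0.76 (SE 0.19) and Acat2 by 0.76 (SE 0.23). Hmgcs1 fell by 1.02 (SE 0.34, adjusted p = 0.0447), but its replicates overlapped between media and 13 of 25 alternatives called it. For Sc5d, Stard4 and Fasn the call survived leaving out any replicate. Fasn, not well above background with tumour material, was at least 3.48-fold lower under the background correction used here. Over the alternatives its fitted difference ran from -3.56 to -0.81. Acss2 fell by 1.94 (SE 0.53). Insig2 rose by 0.84 (SE 0.19, adjusted p = 0.00766). Fdps at -0.83 lay next to the threshold (adjusted p = 0.0505), and Tm7sf2 at -0.02 and Nsdhl at 0.01 showed 95% intervals of -0.53 to 0.48 and -0.48 to 0.51.

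The transgenic count rested on few cultures. It was 4 without transgenic control replicate 3 and 3 without transgenic tumour replicate 3, where a single tumour culture is left and is assumed to vary like the others, and within slide 2 it was 5, with 0 risers. Insig2 was not called there, nor without transgenic tumour replicate 3 or without the slide column 4 arrays. Granulocyte markers fell in 9 of 10 genes and cell division genes in 9 of 12 in this comparison as well. The summed granulocyte signal ran from 7.48 to 9.17 in transgenic control and from 5.85 to 6.10 in transgenic tumour, and its part in the result was not tested.

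**Figure D3:**
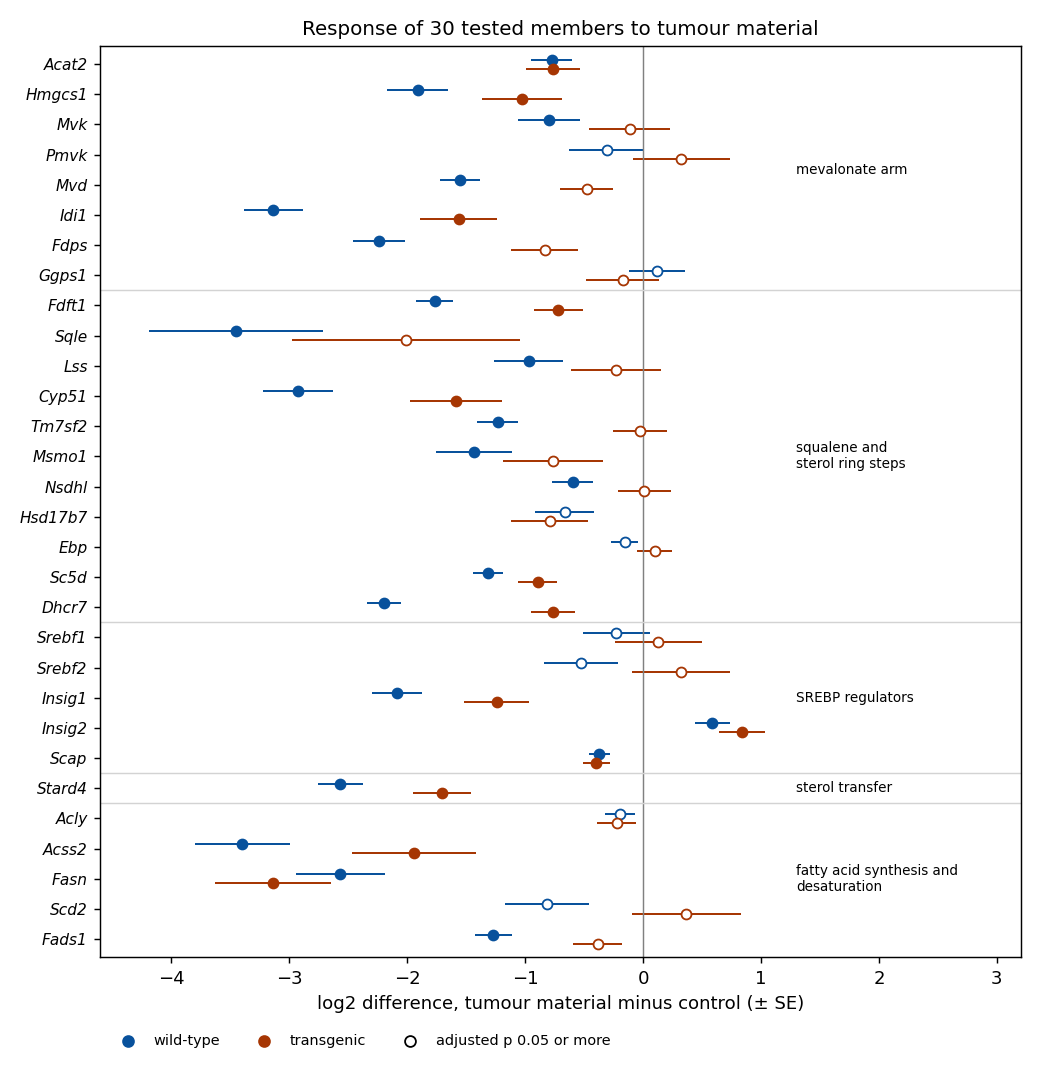
Log2 difference between tumour material and control medium, with its SE, for the 30 tested members in wild-type (blue) and transgenic (brown) macrophages; filled points passed an adjusted p of 0.05. In wild-type cells 21 members fell and 1 rose, in transgenic cells 12 fell and 1 rose, and Insig2 is the gene that rose in each.

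In control medium the genotypes were not told apart at any member. No member passed by limma in either direction (0 higher, 0 lower), where 3.59% of all genes were higher and 5.24% lower in transgenic cells, and at an unadjusted p under 0.05 there were 3, Ggps1 (0.57) and Sc5d (0.37) higher and Fads1 (-0.53) lower. The sterol median was -0.04. The median hid a split within the transgenic group: relative to the wild-type control mean, the 19 sterol genes had a median of -0.61 in replicate 1 but 0.34 and 0.19 in replicates 2 and 3. Replicate 1 was the lowest of its group at 17 of the 19 sterol genes, against 37.7% of all genes tested. Without it the sterol median was 0.39, 3 members were higher and 2 lower, and without replicate 3 of that group 1 member was higher. Cell division genes were higher in transgenic control cells at 8 of 12 genes, and their part in these values was not tested. Acss2 ran the other way from the sterol genes, at 1.75 in replicate 1 against -0.44 and -0.23, and Ggps1 did as well, at 3.92 against 2.67 and 2.44.

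With tumour material, several sterol genes were higher in transgenic than in wild-type macrophages. Of the 30 members 7 were higher and 0 lower, where 1.97% of all genes were higher and 2.56% lower. All 7 belonged to sterol synthesis or transfer: Idi1 and Fdps of the mevalonate arm, Fdft1, Tm7sf2, Sc5d and Dhcr7 of the ring steps, and Stard4. The estimates of all 19 sterol synthesis genes were positive, with a median of 0.78 against -0.01 over all genes. In 21 of 30 members both transgenic tumour replicates lay above every wild-type tumour replicate, against 22% of all genes. This count uses replicate levels without a slide term. All transgenic tumour arrays were on slide 2, and wild-type tumour replicates 1 and 2 were on slide 1 only. Slide and genotype are therefore mixed in the count.

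Idi1 showed the largest of the called differences, 1.54 (SE 0.32, adjusted p = 0.0188), a 2.91-fold higher level. Fdps followed at 1.31 (SE 0.28, adjusted p = 0.0217), Dhcr7 at 1.28 (SE 0.19, adjusted p = 0.00241) and Stard4 at 1.17 (SE 0.25, adjusted p = 0.019). Tm7sf2 was higher by 1.04 (SE 0.23, adjusted p = 0.0244), Fdft1 by 0.86 (SE 0.21, adjusted p = 0.0361) and Sc5d by 0.79 (SE 0.16, adjusted p = 0.0178). Over the 25 alternatives the call was made in 22 for Dhcr7, 20 for Idi1 and Stard4, 19 for Fdps and Sc5d, 16 for Tm7sf2 and 13 for Fdft1. Fdft1 lost it under quantile normalization, in the deposited matrix and with normexp, among others, with adjusted p from 0.00114 to 0.417. For each of these genes the transgenic tumour values sat between wild-type tumour and wild-type control. Sqle had a larger estimate of 1.64 that did not pass (95% interval -0.46 to 3.73), and Cyp51 at 1.07 (adjusted p = 0.161), Srebf2 at 1.15 (adjusted p = 0.157) and Insig1 at 0.95 (adjusted p = 0.0806) did not pass either. The second Srebf2 probe passed at 0.88 (adjusted p = 0.0307). Genotype estimates near 0 with tumour material included those of Ebp, at 0.11 (95% interval -0.21 to 0.43), and Insig2, at -0.08 (-0.50 to 0.34). Srebf1 was fitted at 0.07 (-0.73 to 0.87) with the slide term. Its replicates did not overlap, and its plain difference of means was 0.68. Hsd17b7 read -1.47, -1.21 and -0.89 in wild-type tumour and -0.51 and -0.84 in transgenic tumour, with no overlap and a plain difference of means of 0.52. The fit gave 0.03 with its slide term (-0.67 to 0.74), 0.42 without it and 0.58 at the second probe (adjusted p = 0.192), so the value for Hsd17b7 depends on the slide term and the probe.

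No fatty acid member was called in this comparison by limma (0 of 5, and 2 at an unadjusted p under 0.05), and their median was 0.35. Scd2 had the largest estimate, 1.25 (95% interval 0.25 to 2.25, adjusted p = 0.168), and Fads1 showed 0.35 (adjusted p = 0.392). Acss2 was not well above background in wild-type tumour, and 2 of 3 transgenic tumour arrays measured it. With dim arrays set at the limit, its group means differed 2.04-fold. The fitted difference of 1.21 (95% interval 0.07 to 2.35, adjusted p = 0.245) did not pass, and a second, dimmer probe of Acss2 gave 0.33. Fasn was below the background limit in both tumour groups, so no difference is given. Acly differed by -0.14 (95% interval -0.50 to 0.22).

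Transgenic control arrays act on the genotype comparison with tumour material only through the shared error and the slide term. Without the slide column 4 arrays, replicate 3 is the only transgenic control left. The count of 7 was sensitive to single cultures. It was 0 without wild-type tumour replicate 3, 0 without transgenic tumour replicate 3, 16 without transgenic control replicate 1 and 16 without the slide column 4 arrays. On slide 2 alone, with 1 residual degree of freedom, the sterol median was 0.86, Dhcr7 differed by 1.27 and Idi1 by 1.50. The only wild-type tumour array there is the repeat of replicate 3. These values therefore rest on 1 wild-type tumour culture and add no separate one. Of 6 tested fibroblast markers 1 was called lower in transgenic cells, where 2.56% of all genes were, and 5 had negative estimates. Their log2 summed signal was 5.07 to 5.46 in wild-type tumour and 3.10 to 3.28 in transgenic tumour. Cell division genes had 5.14 to 5.40 and 5.27 to 5.49, and the part of other cells was not tested.

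**Figure D4:**
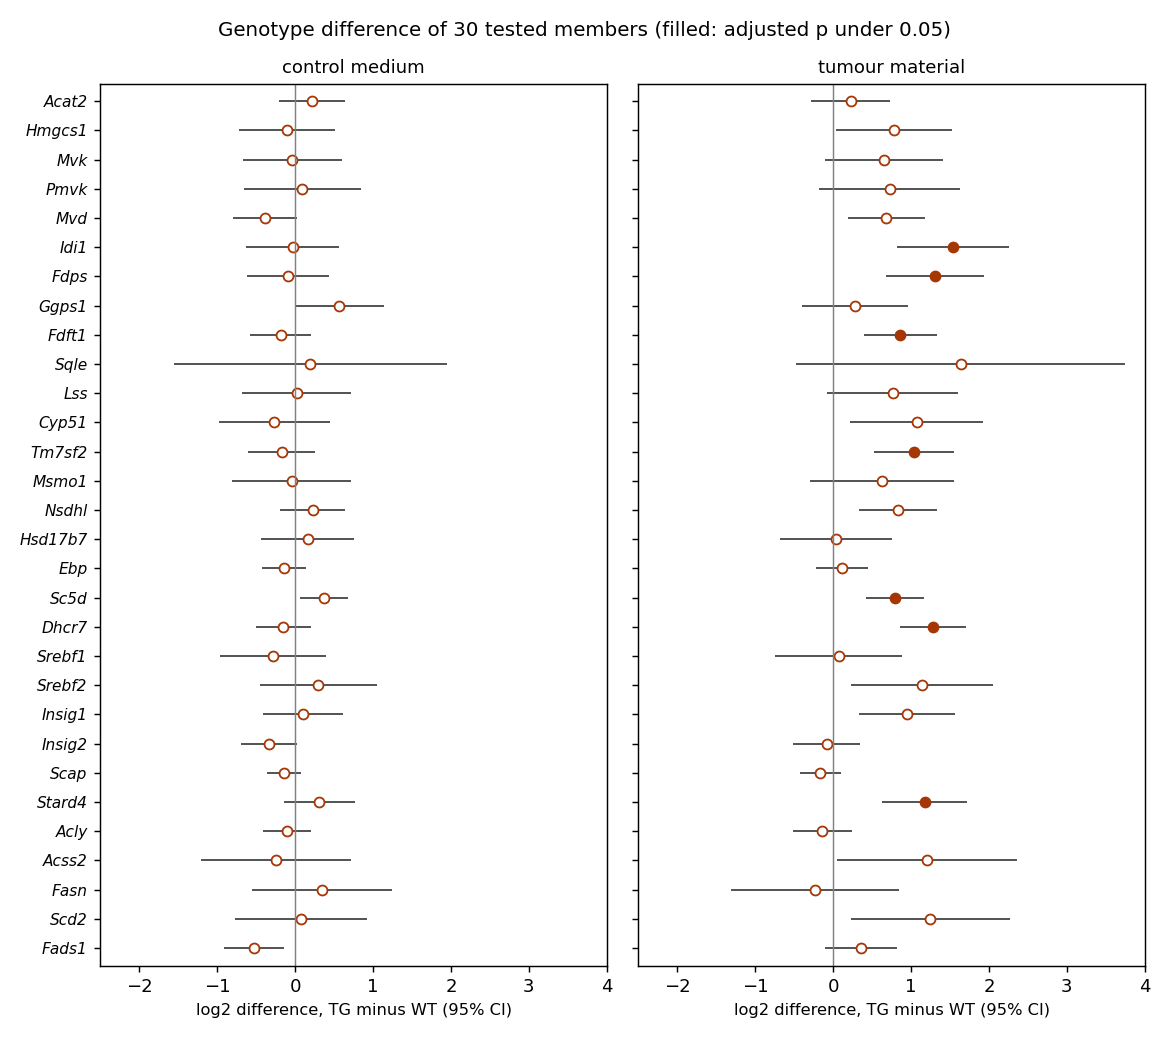
Log2 difference between transgenic (TG) and wild-type (WT) macrophages in control medium (left) and with tumour material (right), with 95% confidence intervals, for the 30 tested members; filled points passed an adjusted p of 0.05. In control medium 0 members passed, with tumour material 7 did, and on the right the points of the 19 sterol genes from Acat2 to Dhcr7 all lie above 0.

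The difference between both responses was tested directly for each gene. One member passed, Dhcr7, with a response less negative by 1.44 in transgenic cells (SE 0.24, adjusted p = 0.00897), that is 1 of 30 where 1.02% of all genes were higher and 0.928% lower, and 0 members passed as lower. Dhcr7 fell 4.59-fold in wild-type and 1.70-fold in transgenic cells. The estimates were positive for 17 of 19 sterol genes, with a median of 0.74 against 0.02 over all genes. Cell division genes moved the other way in the same comparison, with 5 of 12 called lower, all 12 negative and a median of -1.85, and their part in these values was not tested. Next in line, without passing, were Tm7sf2 at 1.21 (adjusted p = 0.0649), Fdft1 at 1.05 (adjusted p = 0.0789), Fdps at 1.40 (adjusted p = 0.0844), Idi1 at 1.57 (adjusted p = 0.0899) and Mvd at 1.07 (adjusted p = 0.0914). The difference between responses was near 0 at Acat2 (0.01, 95% interval -0.62 to 0.64) and at Scap (-0.02, interval -0.34 to 0.29). The 2 probes of Hsd17b7 differed in sign, at -0.13 (interval -1.02 to 0.77) and 0.52 (adjusted p = 0.521). The number of members passing was 8 without transgenic control replicate 1, 5 without replicate 2 and 2 without replicate 3 of that group, and 0 without wild-type tumour replicate 3 or without transgenic tumour replicate 3.

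Sterol and fatty acid genes were set beside each other by counts and medians, without a test between the lists. In wild-type cells 15 of 19 sterol genes and 3 of 5 tested fatty acid genes fell, with medians of -1.31 and -1.27. In transgenic cells it was 7 of 19 and 2 of 5, with medians of -0.76 and -0.38. Both fatty acid medians, -1.27 and -0.38, are the values of Fads1. Acss2 and Fasn in wild-type cells, and Fasn in transgenic cells, lay below Fads1 with their dim arrays set at the limit too. Using the limits could therefore not move these medians. By replicate, the sterol median relative to wild-type control was -1.37, -1.31 and -1.26 in wild-type tumour and -0.54 and -0.69 in transgenic tumour, with no overlap. The fatty acid median was -1.19, -1.35 and -1.12 in wild-type tumour and -0.48 and -0.78 in transgenic tumour, also apart. These medians by replicate carry no slide term, so slide and genotype are mixed in them. In transgenic cells the fatty acid genes ran from Fasn (fitted -3.14) to Scd2 (0.37, not called), and the sterol genes from Sqle (-2.01, not called) to Pmvk (0.32, not called). No sterol gene rose past the threshold in either genotype (0 of 19).

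**Figure D5:**
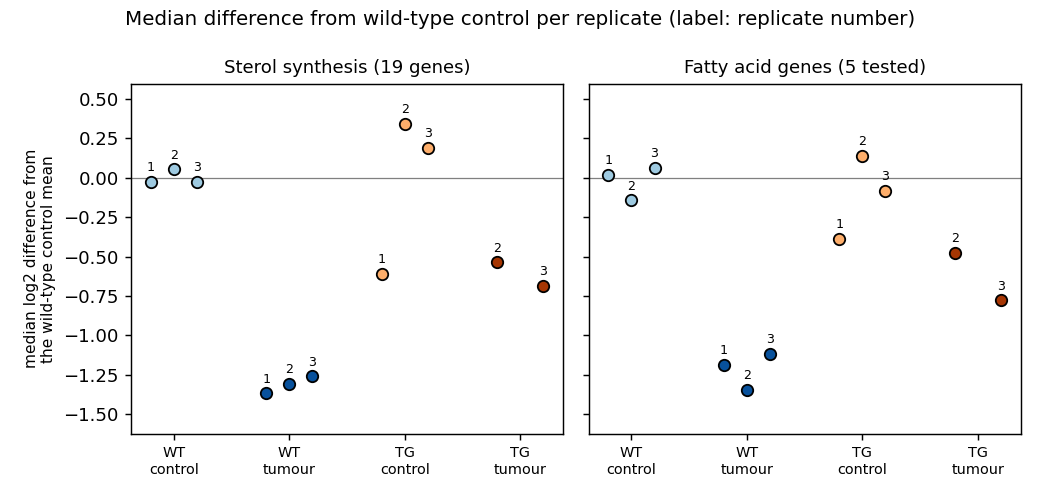
Median log2 difference from the wild-type control mean over the 19 sterol synthesis genes (left) and the 5 tested fatty acid genes (right) in each replicate, numbered as in the labels, for wild-type (WT) and transgenic (TG) cells. Sterol medians are -1.37 to -1.26 in WT tumour and -0.69 and -0.54 in TG tumour, and TG control replicate 1 lies at -0.61 while the other control replicates lie between -0.03 and 0.34.

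Other genes of the same pathways were called in shares nearer to those of all genes tested, where 16.8% fell and 23.2% rose in wild-type cells. Of 16 tested further genes around sterol and isoprenoid synthesis, 3 fell and 3 rose: Aacs, which activates acetoacetate for sterol synthesis, fell by 0.92 (SE 0.11), and Tmem97, a sterol-regulated membrane protein, by 0.71 (SE 0.16), while Nus1, a subunit of the dolichol branch enzyme, rose by 1.15 (SE 0.10) and Pdss1, of the ubiquinone branch, by 0.97 (SE 0.10). Of 20 further fatty acid genes, 6 fell and 4 rose. Lpin1, a phosphatidate phosphatase, fell by 3.50 (SE 0.38), a size that is uncertain because 1 of 4 wild-type tumour arrays lay well above background for it. Elovl6, an elongase, fell by 1.67 (SE 0.21) and Mid1ip1, an activator of acetyl-CoA carboxylase, by 1.02 (SE 0.12), and Acsl1, an acyl-CoA synthetase, rose by 1.69 (SE 0.13). With tumour material the genotypes differed at 3 of these 20 genes, where 1.97% of all genes were higher and 2.56% lower. Acaca, acetyl-CoA carboxylase, was higher in transgenic cells by 0.75 (adjusted p = 0.0335) and Mid1ip1 by 0.74 (adjusted p = 0.0211), and Me1, malic enzyme, was lower by 1.08 (-1.08, adjusted p = 0.0129).

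Genes that process or degrade SREBP proteins changed by small amounts, with 4 of 14 higher and 1 lower in wild-type cells and 0 called in transgenic cells, which for wild-type risers is near the 23.2% of all genes. Erlin1, an endoplasmic reticulum protein linked to SREBP retention, rose by 0.59 (SE 0.11), and Fbxw7, a ubiquitin ligase subunit, fell by 0.48 (SE 0.16). Of 17 tested genes of oxysterols and sterol handling, 8 rose and 4 fell in wild-type cells, where 23.2% of all genes rose and 16.8% fell. Ch25h, whose enzyme makes 25-hydroxycholesterol, rose from a level not well above background in control medium, at least 53.3-fold in wild-type and at least 35.3-fold in transgenic cells. Cyp27a1, a mitochondrial sterol hydroxylase, was at least 13.1-fold lower with tumour material in wild-type cells, where it was not well above background. Lipa, the lysosomal acid lipase that frees cholesterol from its esters, fell by 2.68 (SE 0.15) in wild-type and by 2.16 (SE 0.19) in transgenic cells.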

How the data were processed

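Scans were read with Agilent Feature Extraction 10.7.3.1, per the submitters' processing notes. Per the file headers, the deposited scanner files hold 1 background-subtracted and spatially detrended signal intensity per spot. The deposited series matrix, used as an alternative, holds log2 values that correlate with the log2 scanner intensities at 0.999 on every array. Its values have almost the same median (2.85) and 75th percentile (6.47) on each array, so the direction and the log2 scale could be read from the match, while the authors' filters are not given in the sources used here.

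Of 59305 spots that are not controls, 166 to 270 per array flagged as uneven or as population outliers were left out. Spots of 1 probe were averaged, and 47 of 55681 probes had no usable spot on some array. Log2 signals were scaled by each array's 75th percentile. A probe was kept if at least 1 group had it well above background on every array, and the brightest passing probe stood for its gene. Symbols came from RefSeq accessions, with 28331 probes named and 27350 not; unnamed probes were counted by target. That gave 15834 genes.

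Limma 3.58.1 in R 4.3.3 fitted 4 group means and a slide term, with repeat arrays of a replicate as a random block (correlation 0.0718, 9 residual and 2.64 prior degrees of freedom), tested with eBayes and Benjamini-Hochberg adjustment at 0.05. The fit was tested on simulated data. Titles ending in -2 were read as repeat arrays. For the normexp alternative the median spot signal was used, as the files hold no mean spot signal; its offset was 50. Same-numbered replicates did not deviate together (correlations from -0.216 to 0.203 over 15 pairs), so numbers were not used as pairs. Alternatives covered scaling, normalization, filters, probes, slides, slide column, repeat arrays and leaving out replicates.

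All 32 members are named whatever their values; from the related lists, no more than 3 rises and 3 falls, by size, were named per comparison from genes past the threshold. The members and lists were chosen with earlier results of these data known.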

Additional observations from a re-analysis of the deposited data

Results flagged for a closer look

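The response of Dhcr7 to tumour material differed between the genotypes by the test of that difference itself. Dhcr7 fell by 2.20 on the log2 scale in wild-type and by 0.76 in transgenic macrophages, and the difference of 1.44 (SE 0.24) had an adjusted p of 0.00897 in limma. Over the 25 alternatives the difference ran from 0.90 to 1.55 with adjusted p from 0.00244 to 0.309. It was called in 22 of them and not within slide 2, without wild-type tumour replicate 3 or without transgenic tumour replicate 3. The 3 transgenic control replicates, 1.56, 1.63 and 1.68, included replicate 1, which lay apart at other sterol genes.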

How the results depend on the processing

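No called difference of a member changed sign under the alternatives run; member estimates that did change sign were not called in either fit. Medians of the genotype comparisons, which carry no test, did change sign: the sterol median in control medium (main value -0.04), the fatty acid median there (-0.11, and 0.18 with normexp) and the fatty acid median with tumour material (0.35, and -0.15 with no filter). Leaving out 1 replicate at a time, members lower in wild-type cells numbered 17 to 23, and members lower in transgenic cells 3 to 16. Members higher numbered 0 to 1 in each response, 0 to 16 for genotype with tumour material, 0 to 8 for the difference between responses and 0 to 3 in control medium, where 0 to 2 were lower. Under the same omissions the sterol median ran from -0.22 to 0.39 for genotype in control medium and from 0.54 to 1.16 for the difference between responses. The fatty acid median ran from -1.34 to -1.05 in the wild-type and -0.57 to -0.15 in the transgenic response, from 0.24 to 0.60 for genotype with tumour material and from 0.69 to 1.08 for the difference between responses.

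Within slide 2, 11 members were lower and 0 higher in wild-type cells, 5 lower and 0 higher in transgenic cells, and 0 were higher for genotype with tumour material or for the difference between responses. The fatty acid medians there were -1.54 (wild-type), -0.22 (transgenic) and 0.70 (difference), and the sterol median for genotype in control medium was 0.27. Without a slide term, 12 members were higher for genotype with tumour material and 4 for the difference, with fatty acid medians of -0.23 (transgenic) and 0.53 (genotype with tumour material). Without the slide column 4 arrays these counts were 16 and 8, with 0 members higher in the transgenic response, 1 higher for genotype in control medium, a sterol median of 0.27 there, and fatty acid medians of -0.071 and 0.57. Slide and column 4 together as terms gave 4 members higher and a fatty acid median of 0.58 for genotype with tumour material. With the first array of each replicate alone, that comparison had 1 member higher, a sterol median of 0.48 and a fatty acid median of 0.67. The transgenic response then kept 7 of its 13 calls, with 0 higher and a fatty acid median of -0.071. In both settings the transgenic response rests on transgenic control replicate 3 as its control on slide 2. Without the slide column 4 arrays that replicate is also the only one left in its group. Averaged repeat arrays without a slide term gave fatty acid medians of -0.19 (transgenic) and 0.59 (genotype with tumour material).

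Normexp correction gave fatty acid medians of -0.996 (wild-type), -0.58 (transgenic), 0.18 (genotype in control medium) and 0.50 (difference), a sterol median of 0.48 and 2 members higher for the difference. Requiring signal on all arrays, which leaves 27 members, moved the fatty acid medians to -0.81 and -0.22. No filter, with 32 members, gave fatty acid medians of -0.15 (genotype with tumour material) and 0.36 (difference) and 4 members higher for genotype with tumour material. Averaging all passing probes left 0 members higher in each response, and scaling on probes above background everywhere moved the wild-type sterol median to -1.43. Beyond what these constructions change themselves, the cause was not tested. With the replicate number as a block (replicate block), 22 members were lower in wild-type and 13 in transgenic cells, 7 were higher for genotype with tumour material, and the 22, 13, 7 and 1 calls of the 4 comparisons were all kept. Members not above background, such as Fasn, have only bounds, and with 2 transgenic tumour replicates intervals are wide.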
